A study of Homo sapiens with 40 samples.

Results

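Cassette exons are internal exons that some messenger RNAs of a gene hold and others leave out. Described here are the 1182 such exons, in 940 genes, that lie in protein-coding sequence and whose length is not divisible by 3. They were chosen by a rule on the authors' catalogue of 19972 transcript models from 9460 genes. To be a member, an exon had to be internal in 1 model and left out in another of the same gene and strand that joins the splice sites on either side of it. It also had to be over 30 nt long and lie wholly inside the coding span of at least 1 model that holds it. The catalogue holds 3571 cassette exons in all, of which 2096 are coding and over 30 nt, and 914 of those, in 783 genes, have a length divisible by 3.

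The series examined RNA on ribosomes in H9, an established human embryonic stem cell line, and in neural progenitor cells made from it by dual-SMAD inhibition, which blocks the BMP and TGF-beta pathways. The embryonic stem cells (ESC) were the control and the neural progenitor cells (NPC) the differentiated state. All groups therefore share 1 cell line. For each cell type, polyadenylated RNA came from cytosol, from monosomes, from light polyribosomes (2 to 4 ribosomes) and from heavy polyribosomes (5 or more). Each of the 8 resulting groups had 2 long-read and 3 short-read libraries, 40 in all. The catalogue is 1 pooled set labelled as long-read and carries no value per library. No level in ESC, NPC or a fraction is given below, and the number of models with or without an exon is not its abundance. Genes known to mark the labelled cell types were looked up in it. All 8 ESC markers had a model, as did 5 of 8 NPC markers, SOX1, LHX2 and HES5 having none. Of 8 genes listed as markers of other cell types 4 had a model (AFP, PDGFRA, COL1A1 and THY1). Whether these genes are confined to other cell types was not checked.

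As background, a ribosome reads messenger RNA in steps of 3 bases, so leaving out an exon whose length is a multiple of 3 removes whole codons and keeps the reading frame. Leaving out any other exon shifts the frame for every codon downstream, and the shifted frame usually meets a stop codon soon. A stop codon well upstream of the last exon junction is a known signal for nonsense-mediated decay, in which the exon junction complex left on the RNA marks it for destruction. A ribosome can also begin at a later AUG, which leaves the end of the protein in its usual frame.

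The members had a median length of 112 nt (quartiles 79 and 148 nt, range 31 to 1580 nt), against a median of 102 nt (quartiles 75 and 144 nt) for the divisible coding cassette exons. Division by 3 left 1 nt in 601 members and 2 nt in 581. Near the length limit, the rule kept 4 exons of 31 nt, 3 of 32 nt and 2 of 34 nt, and left out 1 of 28 nt, while none had 29 nt. The intron before a member had a median of 2364 nt and the intron after it 1980 nt, against 2155 and 1894 nt for divisible exons. In 858 of the 1182 members the exon lay inside the coding span of each model that held it. A single member was found in 749 genes, 2 in 148 genes, 3 in 35 genes and 4 in 8 genes. RefSeq lists 904 of the 940 genes as protein-coding, 11 as long non-coding RNAs and 7 as transcribed pseudogenes, and 18 were not matched there. The word coding therefore refers to the coding regions the authors deposited.

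Most members rested on few models of the form without the exon. The skipping form was a single model for 907 members, and 345 members had 1 model of each form. More models held the exon than skipped it for 686 members, fewer for 68, and the numbers were equal for 428. At least 2 models of each form were present for 230 members. In members of ARMC8, ABCD4, FAM219B and ZBTB8OS, among others, the rarer form had 5 models. ARMC8, a subunit of a ubiquitin ligase complex, held its 77 nt exon in 6 models and skipped it in 5. ZBTB8OS, which codes for a cofactor of tRNA ligation, held a 53 nt exon in 9 models and skipped it in 5. ABCD4, a transporter used in vitamin B12 metabolism, had a 128 nt exon in 5 models that 5 others skipped.

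What skipping does to the deposited coding region was read from matched pairs. A matched pair is a model with the exon and a model without it whose introns are otherwise the same, so that the exon is the only internal difference. Such a pair existed for 1044 of the 1182 members and for 869 of the 914 divisible exons. Among the members, 533 pairs (51.1%, 95% Wilson interval 48.0 to 54.1%) kept the stop and began at another start. The start was kept and the stop lay earlier in 268 (25.7%, 23.1 to 28.4%), and lay later in 90 (8.62%, 7.07 to 10.5%). Both ends differed in 30 (2.87%), and the skipping model had no coding region in 123 (11.8%). No pair kept both ends, whereas 809 of 869 divisible exons did (93.1%). That last contrast is fixed by arithmetic, since a coding region of whole codons cannot lose a length not divisible by 3 and keep both its start and its stop. Which end moved, and whether a coding region was deposited at all, is not fixed by the rule. Both can depend on how coding regions were called, which is not given, and the part of this was not tested. The plot of outcomes sets both kinds of exon side by side.

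**Figure D1:**
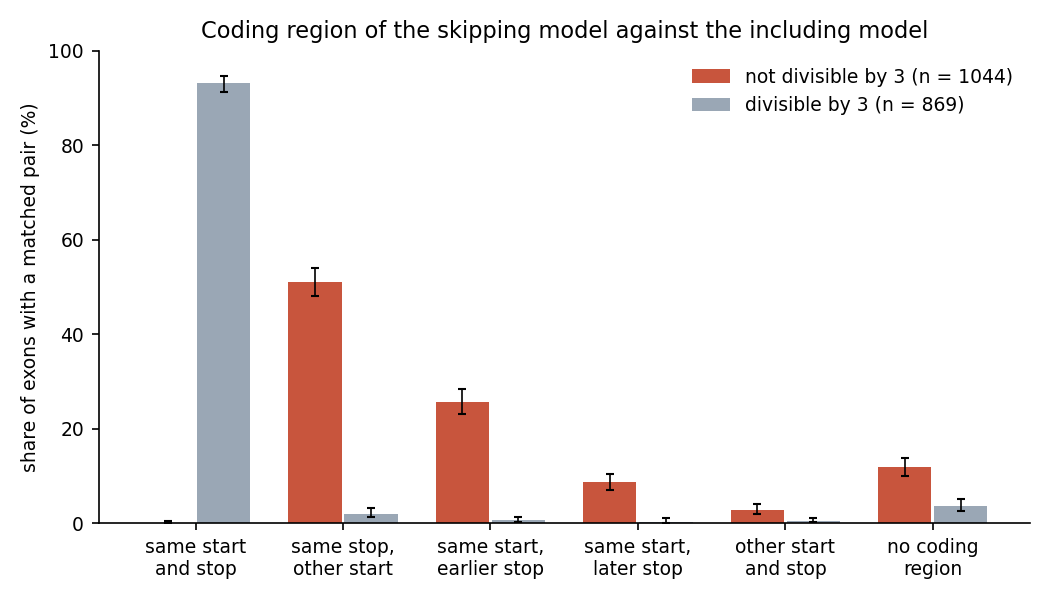
Share of exons (%, vertical axis) by what happened to the coding region of the skipping model of a matched pair (horizontal axis), for 1044 members and 869 divisible exons. Bars are shares and error bars 95% Wilson intervals for counting error. The tallest bar of the members is another start with the same stop (51.1%), and that of divisible exons is both ends kept (93.1%).

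The members were compared with the divisible exons in 4 shares by Fisher's exact test (two-sided, with p adjusted over the 4 by Benjamini-Hochberg). Exons of 1 gene share models and are not replicates, so these p-values describe this catalogue only. The skipping model lacked a coding region for 123 of 1044 members (11.8%, 9.96 to 13.9%) and for 31 of 869 divisible exons (3.57%, 2.52 to 5.02%), a difference past the threshold (Fisher's exact test, adjusted p = 1.47e-11). Over both kinds of exon the share was 8.05%. Where both models had a coding region, the start differed in 563 of 921 members (61.1%, 57.9 to 64.2%) and in 21 of 838 divisible exons (2.51%, 1.64 to 3.80%), and in 33.2% over both kinds. This contrast restates the rule, because an end must move in every member while 809 of the 838 divisible pairs kept both ends, so no p is given for it. Among the 29 divisible pairs in which an end moved, the start differed in 21 (72.4%). All 4 comparisons were repeated under the alternatives described in the closing section.

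Skipping models whose coding region ended over 50 nt upstream of the last junction were called decay candidates. This is a rule on the models, not a measurement of decay. Of all 17247 coding models in the catalogue 541 were candidates (3.14%). Among matched pairs with 2 coding regions, the skipping model was a candidate for 67 of 921 members (7.27%, 5.77 to 9.14%) in 58 genes and for 1 of 838 divisible exons (0.119%, 0.0211 to 0.673%), and for 3.87% over both kinds. No p is given for this contrast, which is also largely set by the rule. The 809 divisible pairs that kept both ends kept the stop of the including model. So did the 533 member pairs that moved only the start. Of their skipping models 2 were candidates, each paired with an including model that was a candidate too. Among the 29 divisible pairs in which an end moved, 1 skipping model was a candidate (3.45%), and 17 of the 29 kept the stop. The model holding the exon was a candidate for 15 members (1.63%, 0.989 to 2.67%) and 2 divisible exons (0.239%, 0.0655 to 0.866%), an adjusted p of 0.00266 by the same exact test, beside 0.966% over both kinds. That difference did not hold in pairs with at least 2 models of each form (2 of 187 against 0 of 181, adjusted p = 0.499, exact). It also missed the threshold with the pair sharing most introns (adjusted p = 0.0564, exact), and with any junction downstream it changed direction (4.45% against 5.61%, adjusted p = 0.275, exact). In 4 members both forms were candidates. The including model of a pair has the whole exon inside its coding span. An exon in which the coding region ends partway could therefore not be counted, so 15 and 67 cannot be compared. Counting every coding model that skips a member, 78 of 1299 were candidates (6.005%), which is 14.4% of the 541. Those 1299 are part of the 17247 coding models. Candidates that held a member numbered 103, and 156 held one, skipped one or did both. The number of coding models that hold a member is not given here, so 103 and 78 cannot be compared. More models held the exon than skipped it for 686 members, and fewer for 68.

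Place in the coding region went with the outcome. The part of the unknown method of calling coding regions in this was not tested. A member began at a median of 25.03% of the way along the coding region (quartiles 10.2 and 52.0%), against 36.3% for divisible exons (quartiles 17.4 and 58.3%). It was the second exon of its model in 30.8% of member pairs and in 18.3% of divisible pairs, and the last but one in 27.0% and 18.2%. These are descriptions with no test. Of the 521 members in the first 25% of the coding region, 436 (83.7%) took another start and kept the stop, and 7 (1.34%) ended earlier. Of the 162 members between 50 and 75%, 2 (1.23%) took another start with the same stop and 119 (73.5%) ended earlier. In the last 25%, 61 of 113 (54.0%) ended earlier and 51 (45.1%) later. Between 25 and 50%, the stretch with the most varied outcomes, 95 of 248 (38.3%) took another start, 81 (32.7%) ended earlier and 49 (19.8%) had no coding region. This stretch also held 38 of the 67 skipping candidates, against 9 in the stretch before it and 17 and 3 in those after it.

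**Figure D2:**
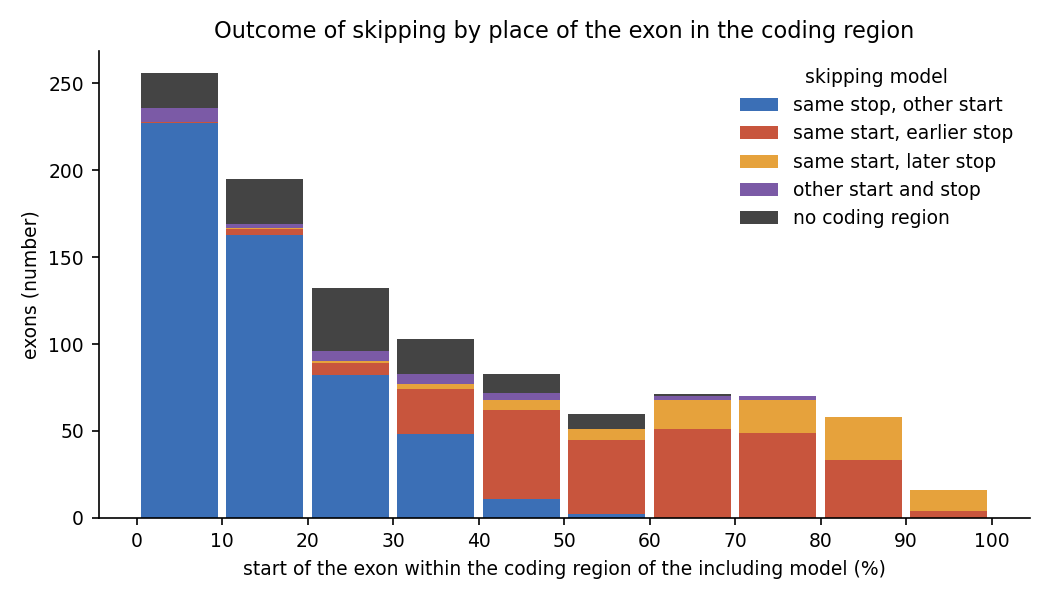
Number of members (vertical axis) by where the exon begins in the coding region of the model that holds it (horizontal axis, %, in steps of 10), coloured by the outcome in the skipping model, for 1044 matched pairs. Another start fills the early bars (436 of 521 in the first 25%), and earlier or later stops fill the late ones (112 of 113 in the last 25%).

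The 533 members with another start and the same stop are the largest group. Their coding regions had a median of 351 codons with the exon and 222 without it, counted as deposited. The new start lay downstream of the skipped exon in 428, between the old start and the exon in 84, and upstream of the old start in 21. In the 428, it lay a median of 94.5 nt after the joint, and in 266 it fell in the first exon after the joint. Of the 533 starts, 47 were also used by another model that holds the exon. The median 5′ untranslated region was 94 nt with the exon and 316 nt without it. Whether these starts are used by ribosomes was not tested.

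Splicing regulators gave examples of this outcome, in some genes of a family and not in others. HNRNPH1 and HNRNPH3 code for related RNA-binding proteins of the hnRNP H family, and each had a member of 139 nt. In HNRNPH1 (chr5:179619269-179619407, minus strand) 8 models held it and 1 skipped it, and the coding region had 450 codons with it and 220 without. In HNRNPH3 (chr10:68337858-68337996, plus strand) 4 models held it and 3 skipped it, with 347 and 212 codons. The new start lay 155 nt after the joint in both genes. CLK1 and CLK3, kinases that phosphorylate SR splicing proteins, had members of 91 nt (chr2:200860125-200860215, minus strand) and 97 nt (chr15:74622120-74622216, plus strand). The CLK1 coding region had 485 codons with its exon and 259 without, and that of CLK3 had 491 and 270, and the new start lay 198 nt after the joint in both. TRA2B, a splicing activator related to the SR proteins, had a 134 nt member with 289 codons in the including form and 189 in the skipping form. Of their relatives, HNRNPF with 5 models and CLK2 with 4 held no member. Whether these 2 genes have an internal exon wholly inside a coding region, which a member needs, was not examined. HNRNPH2, with 1 model, and CLK4, with no model, could not hold one, since a member needs a model of each form. These related genes share ancestry, so equal lengths in them are not independent observations.

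Other regulators changed start in the same way. BAX, which promotes apoptosis by opening the outer mitochondrial membrane, had a 52 nt member in its second exon with 219 codons in the including form and 182 without. OTX2, a homeobox factor of the anterior brain and 1 of the NPC markers looked up, had overlapping members of 152 and 176 nt that end at the same splice site. They had 289 and 297 codons with the exon, and 120 without either. EIF4A2, an RNA helicase of translation initiation, had a 140 nt member with 409 codons, and 313 when skipped, from a start 62 nt before the joint. EIF3H, a subunit of initiation factor 3, had a 157 nt member with 353 codons, and 253 when skipped. The largest losses came with exons of very different length. SPECC1 lost 579 codons with its 1580 nt exon (988 to 409), and BCHE, the gene of butyrylcholinesterase, went from 622 to 65 codons with its 1525 nt exon. MTRR, an enzyme that reactivates methionine synthase, went from 699 to 158 codons with an exon of 154 nt. BARD1, the partner of BRCA1, went from 778 to 346 codons with a 950 nt exon.

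**Figure D3:**
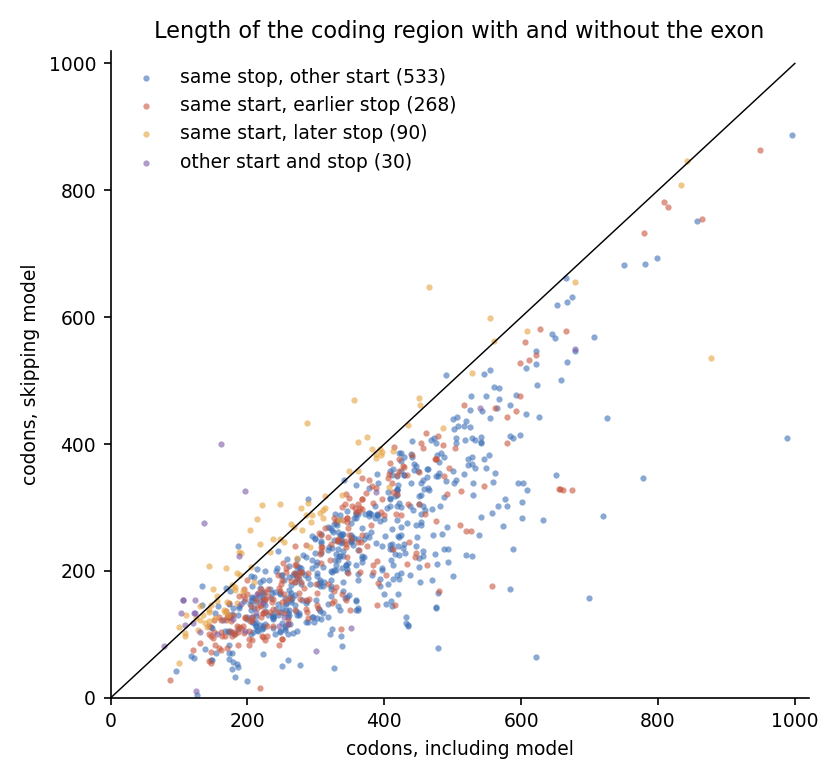
Codons in the coding region of the skipping model (vertical axis) against the including model (horizontal axis) for the 921 matched pairs with 2 coding regions, 1 point a member, coloured by outcome. The line marks equal length. The skipping form is shorter in 861, longer in 59 and equal in 1.

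Among the 268 members with the same start and an earlier stop, the frame after the joint ran a median of 46 nt before the stop (quartiles 20 and 96.5 nt, range 1 to 368 nt). The stop fell in the first exon after the joint in 218 and in the second in 41. It lay in the last exon in 177 and upstream of it in 91. The coding region had a median of 308.5 codons with the exon and 196 without it. The skipping model was a decay candidate in 55. For all 67 candidates the stop lay a median of 164 nt upstream of the last junction (quartiles 77 and 280 nt, range 51 to 906 nt). Close to the limit, 7 lay over 50 and up to 60 nt upstream, and 7 others over 40 and up to 50 nt were not called.

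EWSR1, which codes for an RNA-binding protein, had the skipping stop farthest from the last junction. Its members of 35 nt (chr22:29291565-29291599) and 38 nt (chr22:29291562-29291599), both on the plus strand, differed by the place of their first splice site. The shorter was held by 2 models and the longer by 1, and 1 model skipped both. Their coding regions had 656 and 657 codons, and 329 without either, with a stop 906 nt upstream of the last junction. That stop came 13 nt after the joint.

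Other candidates came from varied pathways. POMGNT1, an enzyme of O-mannose glycosylation, had a 76 nt member whose skipping coding region had 328 codons instead of 661 and ended 835 nt upstream of the last junction. BCL2L12 had overlapping members of 143 and 140 nt with 251 and 250 codons, and 93 without, ending 280 nt upstream. MAD2L1, a protein of the spindle checkpoint, had a 121 nt member with 206 codons against 91, and its stop lay 51 nt upstream, just past the limit. SNRPA1, a protein of the U2 spliceosomal particle, had an 80 nt member with 256 codons against 155 and a stop 164 nt upstream. CDK10, a cyclin-dependent kinase, had a 70 nt member with a stop 234 nt upstream (290 codons against 156). ARRB2, which codes for a beta-arrestin, had an 85 nt member whose skipping form kept 16 of 218 codons and ended 427 nt upstream. Those 218 codons are already a shorter form: skipping another ARRB2 member, of 31 nt, took the coding region from 410 to 218 codons.

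An earlier stop in the last exon leaves no junction downstream. TDGF1, an embryonic growth factor and ESC marker, had a 110 nt member with 184 against 114 codons, and its stop lay 19 nt into the last exon. EIF2B3, a subunit of an initiation factor, had a 104 nt member with 453 against 402 codons, and its stop lay 4 nt into the last exon.

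In the 90 members with a later stop the coding region could be longer or shorter. The change ran from -342 codons, in GRM3 (878 to 536), to 181 codons, in AKAP8L (466 to 647), with quartiles of -19.75 and 11 codons. The median was -4 codons, with 40 coding regions longer, 49 shorter and 1 equal. The new frame ran a median of 196.5 nt, and 65 of the 90 exons were last but one. HNRNPH1 had such a member of 50 nt (chr5:179615546-179615595), held by 6 models and skipped by 3, with 450 codons in the including form and 473 in the skipping form. The including stop codon ended on the last base of this exon, and the skipping one in the exon after it. BIRC5, the inhibitor of apoptosis survivin, had a 118 nt member with 143 codons against 138, and CCND3, the gene of cyclin D3, a 137 nt member with 293 against 277.

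In 15 members it was the including model that was the candidate. The stop lay a median of 172 nt upstream of the last junction (range 56 to 625 nt). ALG8, a glucosyltransferase of N-glycan synthesis, had a 140 nt member (chr11:78109442-78109581, minus strand) whose paired coding regions had 355 codons with the exon and 469 without, the including stop lying 250 nt upstream of the last junction. AKAP8L, a nuclear anchoring protein, had a 137 nt member with 466 codons in the including form and 647 in the skipping form, and a stop 371 nt upstream in the former. The other 5 ALG8 models that hold the exon differ elsewhere in their introns and had 468 to 527 codons, as the maps show. Both paired models begin the next exon downstream at 32726 nt on the map, and those 5 begin it at 32692 nt. Of those 5, model 6 shares its start, at 50 nt on the map, and all its other splice sites with the including model of the pair. Model 6 had 527 codons, and its stop lay 232 nt past the last junction. The early stop of the pair is thus seen with the splice site at 32726 nt as well as with the member, and the part of either was not tested.

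**Figure D4:**
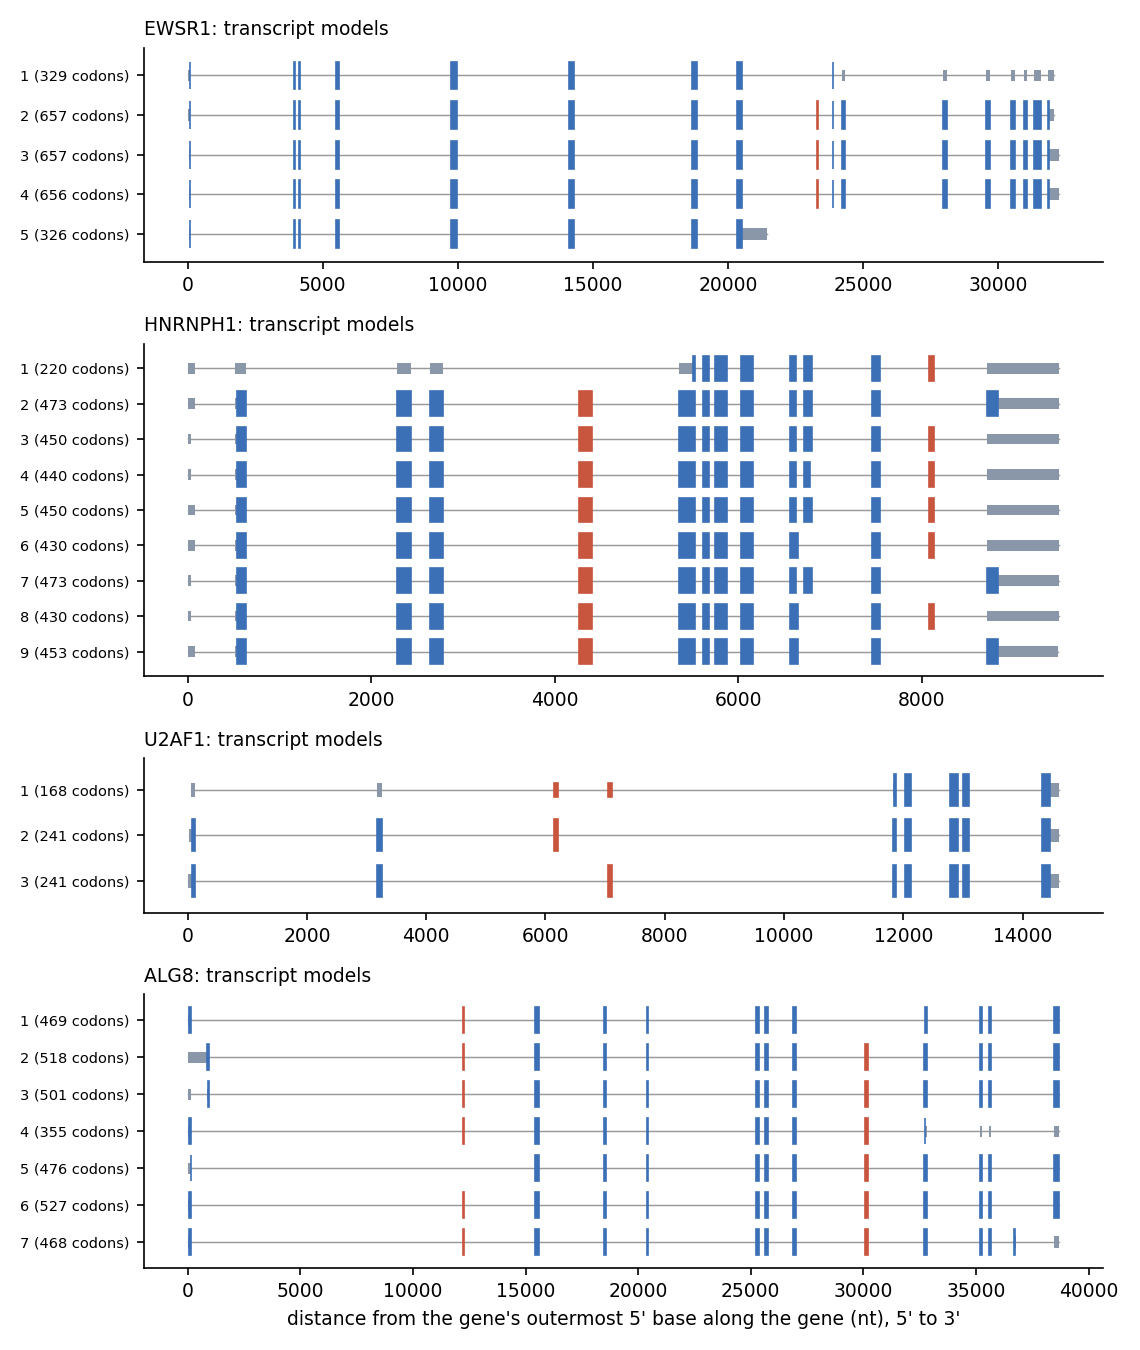
Transcript models of EWSR1, HNRNPH1, U2AF1 and ALG8, drawn in the direction of transcription by distance from the outermost 5′ base (horizontal axis, nt). Tall boxes are coding and low boxes untranslated parts of exons, members are red, and each row is 1 model with its codons as deposited. In EWSR1, model 1 skips the members and ends at 329 codons, and in U2AF1 models 2 and 3 hold 1 member each and have 241 codons.

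In the 123 members whose skipping model had no coding region, the including coding region had a median of 158 codons (quartiles 121 and 196.5), against 351 in members with another start, and the member began at a median of 24.7% of it. Their median exon length was 113 nt. UQCRH, a subunit of respiratory complex III, had a 148 nt member with 103 codons. The share was 14.1% (11.4 to 17.3%) of members that leave 1 nt and 9.44% (7.22 to 12.3%) of those that leave 2, a difference that was not tested. No label or header names the program that assigned coding regions, and its part in these 123 was not tested.

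In most double skips of divisible sum both ends of the coding region were kept. There were 144 neighbouring pairs of members in 108 genes, and in 73 of them the 2 lengths added up to a multiple of 3. A matched model that skipped both was found for 49 pairs whose sum was divisible by 3 and for 37 whose sum was not. Of the 49, 44 (89.8%, 78.2 to 95.6%) kept both start and stop, 4 had no coding region and 1 changed both ends. Of the 37, none kept both ends, as the arithmetic requires, 18 took another start, 11 ended earlier, 2 ended later and 6 had no coding region. None of the 49 double-skipping models was a decay candidate, against 3 of the 37. This contrast too was largely fixed, since the 44 kept the stop of the model with both exons. The models without a coding region, 4 and 6, could not be candidates.

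Some exons, in AARSD1, CYP20A1 and DGUOK, gave one outcome when skipped alone and another when skipped with a neighbour. AARSD1 had members of 95 and 55 nt. Skipping the 55 nt exon alone took the coding region from 413 to 324 codons with a stop 76 nt upstream of the last junction, and skipping both gave 363 codons with both ends kept. CYP20A1, a cytochrome P450 gene, had members of 79 and 116 nt. Without the 79 nt exon the coding region had 209 codons instead of 463 and ended 532 nt upstream of the last junction, while in another pair of models skipping both took it from 361 to 296 codons with both ends kept. DGUOK, a mitochondrial deoxyguanosine kinase, had members of 148 and 116 nt. In models with 180 codons, leaving out the 116 nt exon gave 103 codons and a stop 88 nt upstream, and leaving out the 148 nt exon gave no coding region. In another pair, leaving out both took the coding region from 278 to 190 codons with its ends kept. HDAC3, a histone deacetylase, had members of 82 and 143 nt, and skipping both took the coding region from 429 to 354 codons with both ends kept. Its 82 nt exon had no matched pair when skipped alone. RAD51C, a gene of homologous repair, had 61 nt twins whose sum of 122 nt is not divisible by 3. Skipping both moved the stop earlier, from 377 to 306 codons, and so did skipping the first alone, from 377 to 343.

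**Figure D5:**
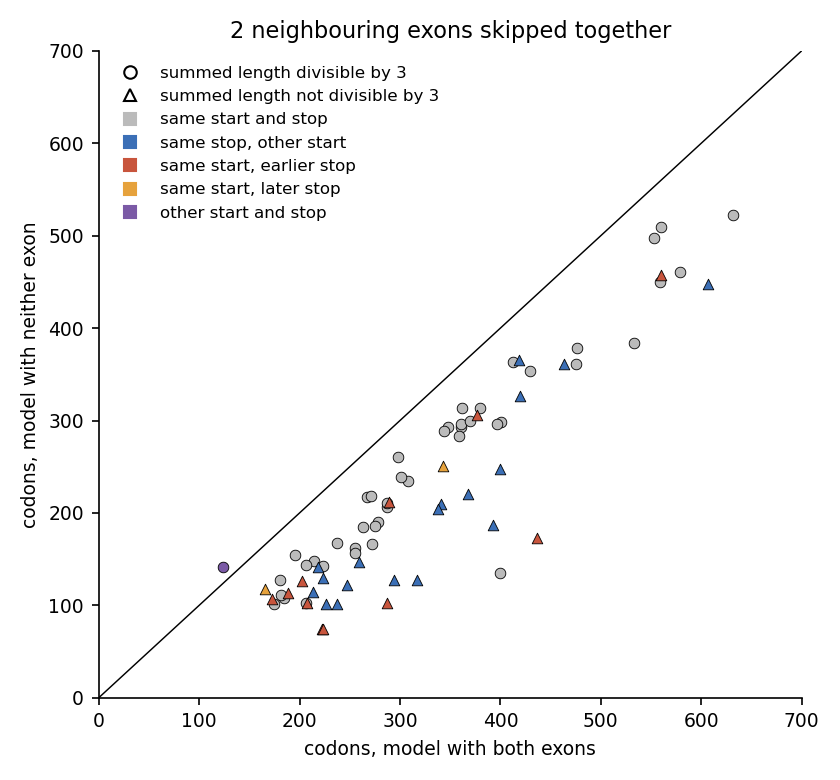
Codons in the model that skips 2 neighbouring members (vertical axis) against the model that holds both (horizontal axis), for pairs with 2 coding regions. Circles have a summed length divisible by 3 and triangles do not, colours give the outcome and the line marks equal length. All but 1 of the circles are grey, that is, 44 kept both start and stop.

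The 138 members without a matched pair differed from their closest skipping model by more than the exon. In 40 of them the closest pair kept both start and stop, 36 with further exons skipped, 3 with another exon in the place of the member, and 1 (in CYREN) otherwise. U2AF1, a subunit of the factor that recognises the 3′ splice site, held 2 of the 3. Its members of 67 nt (chr21:43100453-43100519 and chr21:43101366-43101432, minus strand) stood in 1 model each with 241 codons, and another model held both with 168 codons. The other was in GATD1, where 112 nt replaced 85 nt, which leave the same remainder.

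The genes were also counted in 11 lists of pathways and complexes. Of all genes with at least 2 coding models, 886 of 4072 held a member (21.8%). Cytosolic ribosomal protein genes held none in 33 such genes, which allows a share of up to 9.09%. The factors of decay and the exon junction complex held none in 5, which allows up to 60%. Both limits are 3 divided by the number of genes, an approximation that is rough for as few as 5. Members were in 6 of 13 apoptosis regulators (among them BAX, BCL2L12, BID, BIRC5 and DIABLO), 6 of 20 cyclins, CDKs and checkpoint genes, and 8 of 31 respiratory chain genes. They were in 3 of 11 SR proteins and their kinases, 4 of 24 genes of hnRNPs and other splicing repressors, and 4 of 23 core spliceosome genes. They were also in 5 of 25 translation factors, 5 of 30 DNA repair genes and 3 of 15 pluripotency and neural regulators. The lists are small and no test was run on them.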

How the data were processed

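The authors deposited transcript models whose exon and coding-region positions, in nt, are the values used here. STAR 2.7.8a and Salmon 1.9.0 are listed, with no role, in the submitters' processing notes. How the models were built and filtered, how coding regions were called and on which genome build is not given in any source used here, so coordinates are printed as deposited, counted from 1. Depth is unknown.

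Models were grouped by gene, chromosome and strand with Python 3.11.15. Of several matched pairs, the one with the longest including coding region was used. Codons are those of the deposited coding region, its last codon included. Wilson intervals (95%) cover counting error only, and Fisher's exact tests used SciPy 1.17.1, with a threshold of 0.05 on adjusted p. The search for exons, pairs and stop distances was tested on simulated models of both strands. Members and lists were chosen with earlier results of these data known. Named exons were those with most models of the rarer form, most codons lost or gained, candidates with the farthest stop, the shortest and longest, genes with most members, and up to 4 for each gene list. Other named genes were chosen after their values were seen. Exon sequences were not used here, for lack of a genome of the files' build. Libraries entered no comparison. Some genes that meet the naming rule are not reported here.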

Additional observations from a re-analysis of the deposited data

How the results depend on the processing

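No paired analysis was possible because the models carry no value per library and no replicate number, and for the same reason no replicate could be left out. Of 32 recomputed values of the 4 shares under other settings, 29 kept the direction and the side of the threshold. The share of skipping models without a coding region ran from 10.5 to 12.7% in members and from 2.69 to 4.49% in divisible exons. The share of skipping candidates ran from 5.61 to 12.7% in members and from 0 to 5.37% in divisible exons, the highest of both with any junction downstream. That of moved starts ran from 59.4 to 66.6% and from 2.06 to 5.73%. The rule largely sets these latter contrasts, so that they kept their direction says little. The exceptions all concern including models as candidates. The share was 1.07% with at least 2 models of each form (adjusted p = 0.499, Fisher's exact test) and 1.34% with the pair sharing most introns (adjusted p = 0.0564, exact). With any junction downstream it reversed, at 4.45% against 5.61% (adjusted p = 0.275, exact). The cause was not tested, though the first of these has fewer exons. The number of members was 230 with at least 2 models of each form. Requiring the coding model to share the flanking splice sites, an alternative chosen after seeing the data, left 1096 members; it could not change the 4 shares, since matched pairs share those sites already. Depth is unknown, so a form without a model may be present in the cells.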
